A study of Mus with 7 samples.

Results

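Serum was reduced and bovine serum albumin (BSA) was added to cultured mouse macrophages for 24 h, and single cell transcriptomes with and without this step, before any lipopolysaccharide (LPS), are compared here. The cells are fetal liver-derived macrophages (FLMs), self-renewing cultures from C57BL/6J mice that the study grew in 30 ng/mL GM-CSF with 1% penicillin-streptomycin. The Con library held untreated cells in 10% FBS. The Veh.LPS.0 library held cells moved for 24 h to 0.25% FBS with 8.3 µM BSA, the vehicle for docosahexaenoic acid (DHA), with no LPS. A further reduced-serum library, DHA.LPS.0, had 25 µM DHA on the same BSA and no LPS, and its values stand beside the results as a separately made library of low-serum cells; a comparison of it with Con would share the Con library. The cells of all 3 carry no named transgene or deletion, and they are passaged cultures, not macrophages taken from an animal. Con cells had been seeded for 24 h when collected and Veh.LPS.0 cells for 24 h longer, so the reduction of serum, the addition of BSA and 24 h more in culture cannot be told apart.

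Barcodes were kept as cells when they had more than 20000 unique molecular identifiers (UMIs, each marking 1 captured RNA molecule), at least 2000 genes and less than 20% of UMIs in mitochondrially encoded genes. This left 2908 of 4652 barcodes in Con and 2481 of 4461 in Veh.LPS.0, together 5389 of the 11640 cells kept from the series' 7 libraries. DHA.LPS.0 kept 698 of 3773 barcodes, so that its values rest on a small part of that library. Of its barcodes 76.4% had 20% or more of their UMIs in mitochondrial genes, against 29.0% in Con and 37.8% in Veh.LPS.0. The UMIs of a library's cells were summed for each gene and scaled to UMIs per 1000000 of the library's total (CPM). The total was 125716982 UMIs in Con and 98763388 in Veh.LPS.0. Each condition was a single library, and the differences below therefore carry no replicate check and no p-value. Intervals are exact 95% intervals and cover counting error only. Shares of cells with a UMI, and UMIs per cell, were taken after thinning every cell to 20000 UMIs, so that cells of unequal depth could be set side by side.

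The labelled cell type was borne out by its markers in both libraries. Of 9 macrophage markers, each cell carried 3 or more, and their summed level was 6050 CPM in Con and 5928 CPM in Veh.LPS.0. For lymphoid, dendritic, endothelial, stromal, erythroid and mast cells, hepatocytes and neutrophils, no kept cell carried 3 markers. The filter on UMIs and genes removes cells with little RNA, so this does not limit how many such cells the cultures held. The neutrophil list summed to 264 UMIs in Con, with 5 of its 7 markers at 0, and to 41 UMIs in Veh.LPS.0, with 4 at 0. The hepatocyte list summed to 760 UMIs in Con (6.05 CPM), with 3 of its 6 markers at 0. In Veh.LPS.0 it summed to 548 UMIs (5.55 CPM), with 4 at 0. An osteoclast list was higher, at 12.4 CPM in Con and 26.1 CPM in Veh.LPS.0, with 1 of 5 markers at 0 in each, and 1 Veh.LPS.0 cell held 3 of its markers; its part in the results was not tested. With no second cell type found among the kept cells, the level of free RNA could not be measured from them. Markers were not scored in the barcodes left out. Median depth was 40486 UMIs per cell in Con and 36897 in Veh.LPS.0, and at equal depth the median cell had 4395 and 4378 genes.

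Cultured macrophages take sterols and fatty acids from lipoproteins in serum and make their own when these run low. The SREBP transcription factors drive that response: when membrane sterol falls, they are released from the endoplasmic reticulum and switch on the enzymes of cholesterol and unsaturated fatty acid synthesis. Serum also supplies growth factors, bone morphogenetic proteins (BMPs), selenium in selenoprotein P, and other trace nutrients.

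The transcriptomes of the libraries stood apart. Among 600 cells each of Con, Veh.LPS.0 and DHA.LPS.0 at equal depth, each cell's 20 nearest neighbours were found on 30 principal components (2000 variable genes). Veh.LPS.0 gave 0.733% of the neighbours of a Con cell, and Con gave 0.0750% of the neighbours of a Veh.LPS.0 cell. DHA.LPS.0 gave 25.2% of the latter. Only 24 of the 600 Con cells had any neighbour from Veh.LPS.0, and 8 of the 600 Veh.LPS.0 cells had any from Con. The libraries shared 22 barcodes, 3 of them kept as cells in both.

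In one or the other library 6168 genes were seen in 50% or more of the cells, and of these 468 were more than 1.5-fold higher in Veh.LPS.0 (7.59%) and 550 more than 1.5-fold lower (8.92%). Larger differences were mostly upward, with 157 genes more than 2-fold higher and 46 more than 2-fold lower, and 43 and 8 past 3-fold. The median log2 ratio of Veh.LPS.0 over Con was -0.12 and the middle 50% of genes lay between -0.36 and 0.16. With the scale moved so that the median gene had a ratio of 1, 629 genes were higher and 278 lower, so that 69.4% of the genes past the limit were higher, against 46.0% on the library totals: the balance of directions depends on the scaling. Gene lists are counted below over a wider set of 12157 genes, those for which Con and Veh.LPS.0 each gave 10 UMIs or more, of which 16.9% were more than 1.5-fold higher and 7.59% more than 1.5-fold lower, with a median log2 ratio of 0.01. How many members also met the limit of 50% of cells (the share limit) is given beside the count where it bears on it. A gene can meet that limit through its higher library alone. Cytosolic ribosomal protein genes took 20.7% of UMIs in Con and 23.8% in Veh.LPS.0, and mitochondrial genes took 7.72% in each. Malat1, a nuclear noncoding RNA whose share is sometimes read as a sign of RNA quality, had 6409 CPM in Con, 13656 CPM in Veh.LPS.0 and 15285 CPM in DHA.LPS.0; its part in the other differences was not tested.

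**Figure D1:**
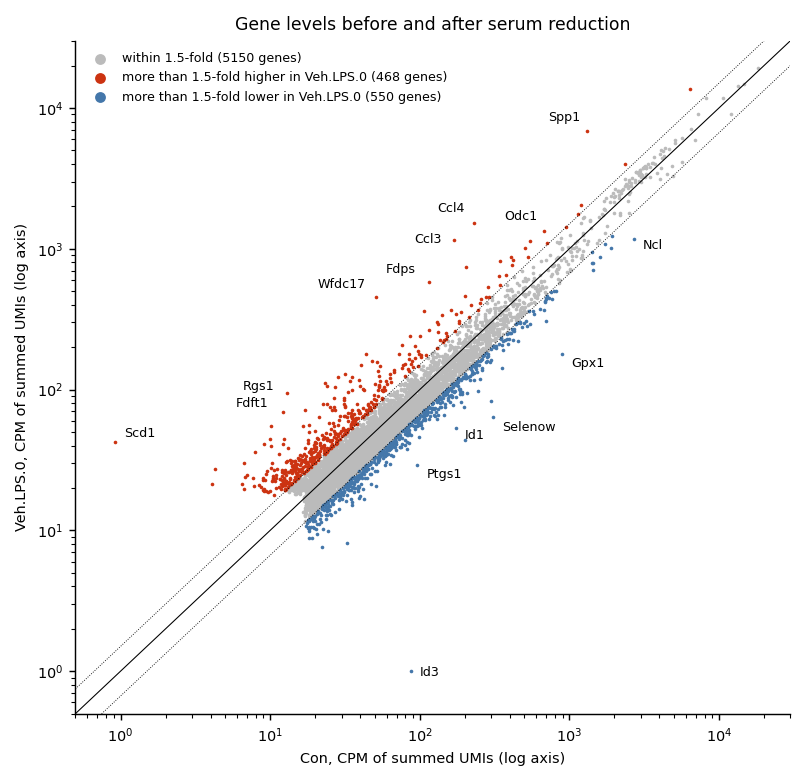
CPM of summed UMIs in Con (x, log axis) and Veh.LPS.0 (y, log axis) for the 6168 genes seen in 50% or more of the cells of Con or Veh.LPS.0. The solid line marks equal levels and the dotted lines a 1.5-fold difference, with the 468 higher genes in red and the 550 lower genes in blue; Scd1 and Id3 lie farthest from the line of equal levels.

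Sterol synthesis genes were higher in Veh.LPS.0 almost without exception. Of 20 enzymes of the path from acetyl-CoA to cholesterol, 19 were more than 1.5-fold higher, 18 of them also past the limit on the share of cells, none was lower, and the median log2 ratio was 1.92. Fdft1, which joins farnesyl units into squalene, had 12.2 CPM in Con, 68.8 CPM in Veh.LPS.0 and 50.7 CPM in DHA.LPS.0, a 5.65-fold difference between the first pair (5.35 to 5.98). Fdps, the farnesyl diphosphate synthase before it, had 115, 581 and 365 CPM in the same order. Each reduced-serum library lay well above Con for both genes. Hmgcs1, which makes HMG-CoA, had 23.4, 112 and 68.0 CPM, a ratio of 4.77 for Veh.LPS.0 over Con (4.58 to 4.97).

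The mevalonate kinases and decarboxylase followed the same order of libraries. Mvd had 23.8, 106 and 68.3 CPM, Pmvk 27.2, 105 and 56.3 CPM, and Mvk 21.1, 63.4 and 41.4 CPM in Con, Veh.LPS.0 and DHA.LPS.0. After squalene, Lss, which closes the sterol rings, had 9.14, 41.3 and 24.2 CPM, and Cyp51, the lanosterol demethylase, had 40.4, 150 and 87.8 CPM. Dhcr7, which acts at the end of the path, had 10.1, 27.9 and 19.3 CPM. Ebp, the sterol isomerase, was the member that stood level, with 78.5 CPM in Con, 78.6 CPM in Veh.LPS.0 and 66.6 CPM in DHA.LPS.0. Tm7sf2, a sterol reductase, had the highest ratio of the list, 7.84, from 0.883 to 6.93 CPM, but was seen in too few cells for the share limit.

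The difference was spread over nearly all of the cells kept and not carried by a few of them. At 20000 UMIs per cell, the median Con cell had 12 UMIs of the 20 sterol genes (10th to 90th percentile 7 to 19) and the median Veh.LPS.0 cell had 45 (23 to 64). In Veh.LPS.0, 97.1% of cells lay above the Con median. The median DHA.LPS.0 cell had 29 (11 to 47), between the others. Hmgcs1 was found in 36.4% of Con cells, 81.5% of Veh.LPS.0 cells and 65.3% of DHA.LPS.0 cells, and Fdft1 in 20.7%, 71.3% and 59.0%.

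**Figure D2:**
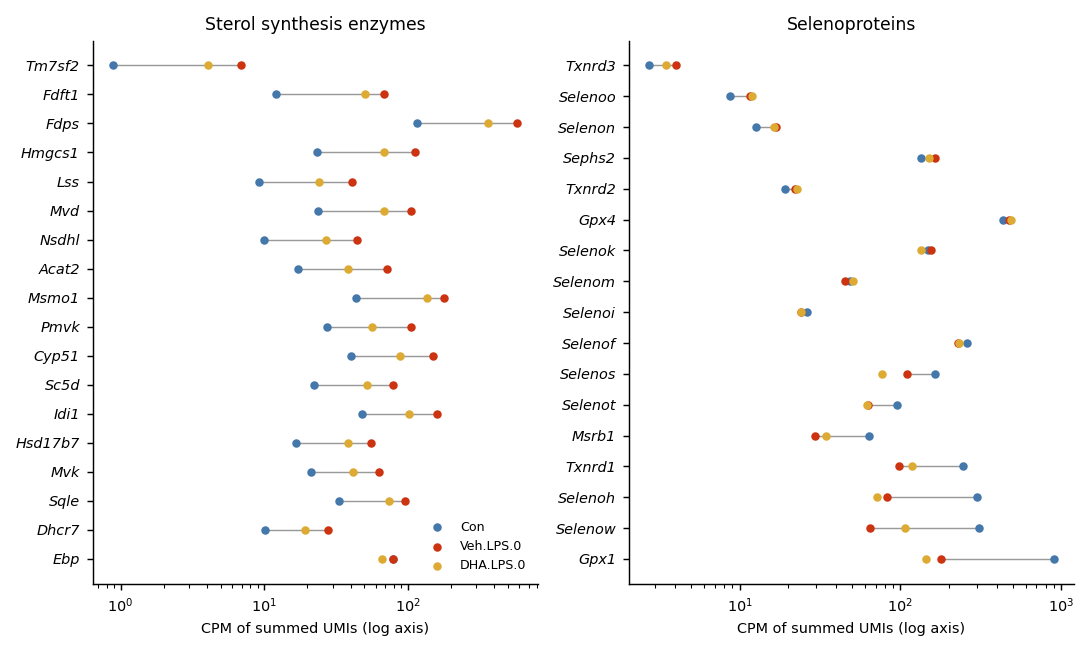
CPM (log axis) of 18 of the 20 sterol synthesis enzymes (left) and 17 selenoproteins with at least 10 UMIs in both libraries (right), in Con, Veh.LPS.0 and DHA.LPS.0; grey lines join Con and Veh.LPS.0, and each point is 1 library. All sterol enzymes shown but Ebp lie to the right of Con in Veh.LPS.0, while selenoproteins fall into a group near Con and a group led by Gpx1 that lies far to the left of it.

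Genes that control sterol supply were mostly higher too. Of 11 measured genes of SREBP control and cholesterol uptake, 6 were more than 1.5-fold higher and 2 lower (6 and 1 with the share limit); the median log2 ratio was 0.71. Insig1, which holds SREBP in the endoplasmic reticulum and is itself an SREBP target, had 12.2 CPM in Con, 41.4 in Veh.LPS.0 and 25.5 in DHA.LPS.0. Srebf2, the gene of the sterol-sensing SREBP, had 37.9, 79.2 and 59.9 CPM. Lipa, the lysosomal lipase that frees cholesterol from lipoprotein esters, went the other way in Veh.LPS.0, with 187 CPM in Con, 97.9 in Veh.LPS.0 and 178 in DHA.LPS.0. In DHA.LPS.0, Lipa was thus near Con. The efflux pump gene Abca1 was scarce, with 102 UMIs in Con and 13 in Veh.LPS.0 (0.811 and 0.132 CPM), and Abcg1 had 28.1 and 19.1 CPM. Their list of 8 cholesterol efflux and related genes was split, with 3 more than 1.5-fold higher and 2 lower. Its median log2 ratio was -0.18. Lpcat3, which was higher, was the 1 member past 1.5-fold that also met the share limit.

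Scd1, a stearoyl-CoA desaturase, which makes oleic from stearic acid, had the highest ratio of all genes past both limits. Scd1 (ENSMUSG00000037071, chr19:44394450-44407709 in GRCm38) had 115 UMIs in Con and 4173 in Veh.LPS.0, or 0.915 and 42.3 CPM, a 46.2-fold difference (38.4 to 56.1). It was found in 2.13% of Con cells, in 50.9% of Veh.LPS.0 cells and in 9.89% of DHA.LPS.0 cells, where it had 6.59 CPM. The level in DHA.LPS.0 thus lay well above Con and well below Veh.LPS.0. Scd2, another stearoyl-CoA desaturase, lay above Scd1 in each library, with 163 CPM in Con, 369 in Veh.LPS.0 and 167 in DHA.LPS.0. Of 13 fatty acid synthesis genes, 7 were past 1.5-fold (5 with the share limit) and all of these were higher; the median log2 ratio was 0.77. Acss2, which makes acetyl-CoA from acetate, had 0.493, 7.19 and 3.68 CPM, Fads2, the delta-6 desaturase, had 3.31, 13.6 and 6.51 CPM, and Acly, the citrate lyase, had 52.5, 99.1 and 72.4 CPM. Fasn, the fatty acid synthase itself, was not among the higher genes, with 51.7, 41.6 and 27.4 CPM, nor was Acaca, the acetyl-CoA carboxylase, with 25.6, 27.0 and 18.7 CPM. Beyond these lists, Lpin1, a phosphatidate phosphatase, had 7.96, 35.8 and 24.4 CPM.

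Uptake and storage genes differed in part. Of 9 measured uptake and activation genes 2 were more than 1.5-fold higher, both with the share limit, and none lower past it. In all, 3 of these 9 were lower, among them Cd36 with a log2 ratio of -0.57. Of 9 measured lipid droplet genes 3 were higher past 1.5-fold, all with the share limit, and 1, Angptl4, was lower (-1.28). Over all genes with 10 UMIs in both libraries 16.9% were higher past 1.5-fold and 7.59% lower. Fabp5, a fatty acid binding protein, had 86.3 CPM in Con, 239 in Veh.LPS.0 and 164 in DHA.LPS.0. Plin2, the lipid droplet coat protein, had 33.3, 68.0 and 419 CPM, so that DHA.LPS.0 stood far above both others. None of the 13 measured fatty acid oxidation genes was past 1.5-fold in either direction, and their median log2 ratio was -0.08.

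Genes of protein and nucleotide production were lower. Of 30 ribosome biogenesis genes, all 30 were lower, 21 of them past 1.5-fold and 20 also past the share limit. Their median log2 ratio was -0.67. Ncl, nucleolin, an abundant protein of the nucleolus, had 2697 CPM in Con, 1181 in Veh.LPS.0 and 1065 in DHA.LPS.0. Tsr1, a factor for the small subunit, had 51.8, 26.2 and 20.8 CPM, and Nop58, of the box C/D particles that guide rRNA methylation, had 359, 191 and 149 CPM. The median cell had 231 UMIs of this list in Con (178 to 280) and 149 in Veh.LPS.0 (112 to 184), and 0.202% of Veh.LPS.0 cells lay above the Con median. The ribosomal proteins themselves did not follow: 74 of 76 were higher, none past 1.5-fold, with a median log2 ratio of 0.21. All 14 purine, pyrimidine and folate genes were lower, 9 past 1.5-fold and also the share limit, with a median of -0.66. Gart and Atic, enzymes of purine synthesis, had 108 and 106 CPM in Con and 60.4 and 63.0 in Veh.LPS.0, while Paics, another step of that path, was level at 152 and 151 CPM.

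Polyamine genes were split. Odc1, the first enzyme of polyamine synthesis, had 674 CPM in Con, 1335 in Veh.LPS.0 and 1442 in DHA.LPS.0. Srm, spermidine synthase, which acts after it, had 252, 118 and 102 CPM. Sat1, which acetylates polyamines for breakdown or export, had 132, 255 and 280 CPM.

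Chaperones of the endoplasmic reticulum were lower: 12 of 20 were more than 1.5-fold lower and 1 higher, all 13 with the share limit too; the median log2 ratio was -0.66. Calr, calreticulin, had 1439 CPM in Con, 701 in Veh.LPS.0 and 814 in DHA.LPS.0. Hspa5, the chaperone BiP, had 1732, 1089 and 1344 CPM, and Creld2, which is induced by unfolded protein, had 133, 65.5 and 74.2 CPM. Edem1, which sends misfolded glycoproteins to degradation, was the higher member, with 102, 169 and 151 CPM. Of 10 heat shock genes all were lower and 3 past 1.5-fold and the share limit, led by Hsph1 with 126, 64.7 and 52.3 CPM. Within the ATF4 list of amino acid response genes, 7 of 25 were higher past 1.5-fold and none lower, with a median log2 ratio of 0.18. Just 3 of these 7 also met the share limit, which 19 of the 25 met. Aldh1l2, a mitochondrial folate enzyme, had 13.2, 38.3 and 53.8 CPM, while Atf4 itself had 207, 219 and 236 CPM.

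Splicing factors, a list chosen after the values were seen, were also lower as a group. Of 16 SR proteins and partners, none was higher, 7 were more than 1.5-fold lower and met the share limit, and the median log2 ratio was -0.55. Sfpq had 352 CPM in Con, 142 in Veh.LPS.0 and 105 in DHA.LPS.0, and Srsf6 had 190, 81.2 and 64.4 CPM. Tra2a was level, with 90.2, 89.98 and 85.9 CPM.

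**Figure D3:**
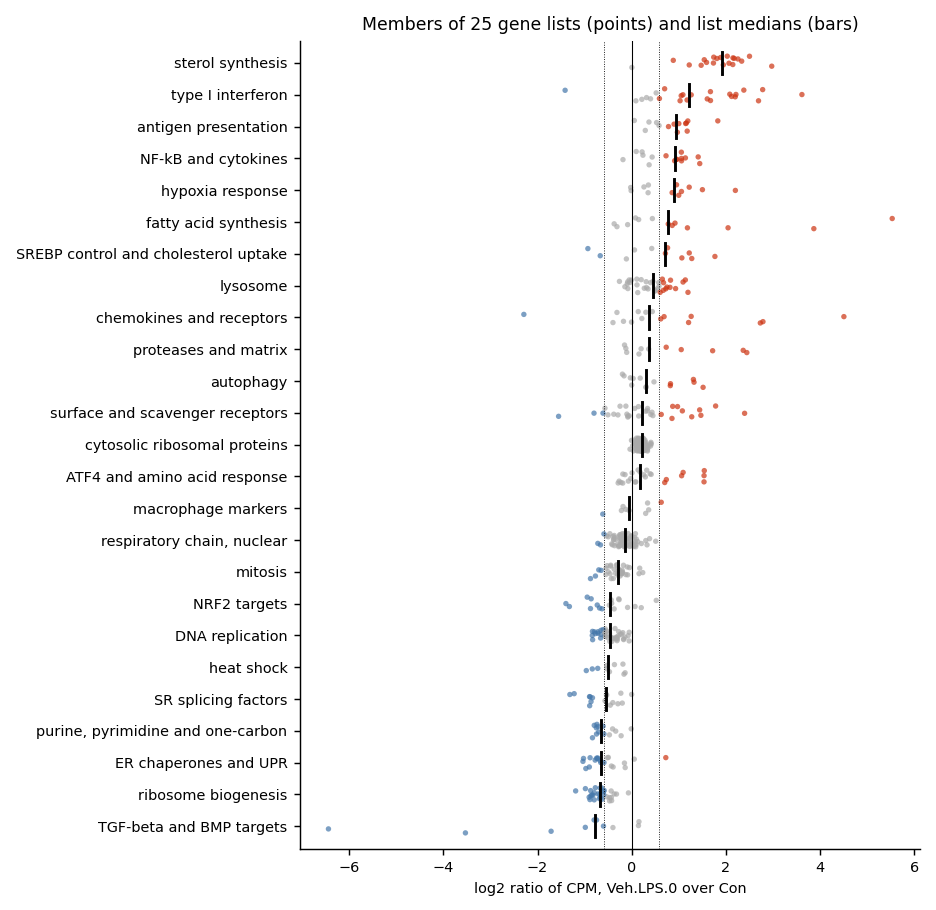
Log2 ratio of CPM, Veh.LPS.0 over Con, of the members of 25 gene lists with at least 10 UMIs in both libraries (points; red and blue past 1.5-fold) and the list medians (bars); dotted lines mark 1.5-fold. Sterol synthesis lies highest with a median of 1.92, and TGF-beta and BMP targets lowest of those shown with -0.77.

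Fewer cells of Veh.LPS.0 were called as cycling. Phases were called from 43 S and 54 G2M genes on the cells of both libraries together at equal depth. In Con, 31.1% of cells were called S (29.4 to 32.8) and 41.95% G2M (40.2 to 43.8), and in Veh.LPS.0 17.9% were called S (16.4 to 19.4) and 34.1% G2M (32.3 to 36.04). G1 was called for the remaining 26.9% in Con and 48.0% in Veh.LPS.0. These intervals cover counting error within 1 library each, and another way of scoring moved shares outside them. With scanpy's scoring, G2M was called for 59.2% of Con and 46.4% of Veh.LPS.0 cells. The calls read free RNA as well as the cell's own, and the part of free RNA was not tested, so a rate of division is not read from them.

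**Figure D4:**
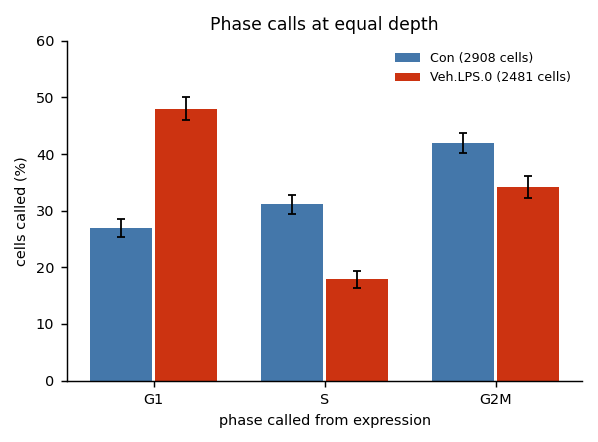
Percent of cells called G1, S and G2M in Con (2908 cells) and Veh.LPS.0 (2481 cells) at 20000 UMIs per cell; error bars are exact binomial 95% intervals, which cover counting error only. S takes 31.1% of Con and 17.9% of Veh.LPS.0 cells.

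All 42 DNA replication genes were lower in Veh.LPS.0, 11 of them past 1.5-fold and the share limit; their median log2 ratio was -0.46, and 19 of the 42 are among the genes that make the phase calls. Dut, which keeps uracil out of DNA, had 239 CPM in Con, 134 in Veh.LPS.0 and 111 in DHA.LPS.0. Mcm5, of the replicative helicase, had 104, 61.1 and 50.5 CPM, and Cdc6, which loads the helicase, had 29.0, 16.3 and 9.82 CPM. Of 37 mitosis genes, 34 were lower, with a median of -0.29, and 4 were past 1.5-fold, a share near the 8.92% of all genes seen in 50% of cells; 28 of the 37 are among the phase genes. The median cell had 60 UMIs of the replication list in Con (31 to 97) and 36 in Veh.LPS.0 (12 to 85), so that the upper parts of the distributions overlapped while many Veh.LPS.0 cells reached low values.

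Of 24 cyclins, kinases and inhibitors, 3 were more than 1.5-fold higher and 3 lower, all with the share limit too. Among all genes with 10 UMIs in both libraries, 16.9% were more than 1.5-fold higher and 7.59% lower. Ccne2 and Ccne1, cyclins of the entry into S phase, had 35.4 and 61.3 CPM in Con and 15.9 and 37.5 CPM in Veh.LPS.0. Ccnd1, a cyclin of early G1 that answers growth factors, had 693 and 835 CPM, Ccnd2 184 and 146 CPM and Cdk4 275 and 247 CPM. Of the mitotic cyclins, Ccnb1 had 155 and 97.4 CPM and Ccnb2 164 and 170.5 CPM. Among inhibitors, Cdkn1b (p27) had 16.5 and 28.1 CPM, Cdkn2d (p19) 39.2 and 68.7 CPM, and Rb1, which holds back E2F, 14.0 and 26.5 CPM. All 3 were past 1.5-fold. Cdkn1a, Cdkn2c, Rbl1 and Rbl2, of the same list, were within it, with log2 ratios of 0.38, -0.25, -0.26 and -0.07. Over 14 histone genes, which include the variants H2afz, H2afx and H2afv, the median log2 ratio was 0.02, and 1 gene was past 1.5-fold, the linker histone Hist1h1b with 753 and 491 CPM. Their summed level was 3884 CPM in Con and 3313 CPM in Veh.LPS.0, and the median cell had 55 and 44 UMIs of them.

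**Figure D5:**
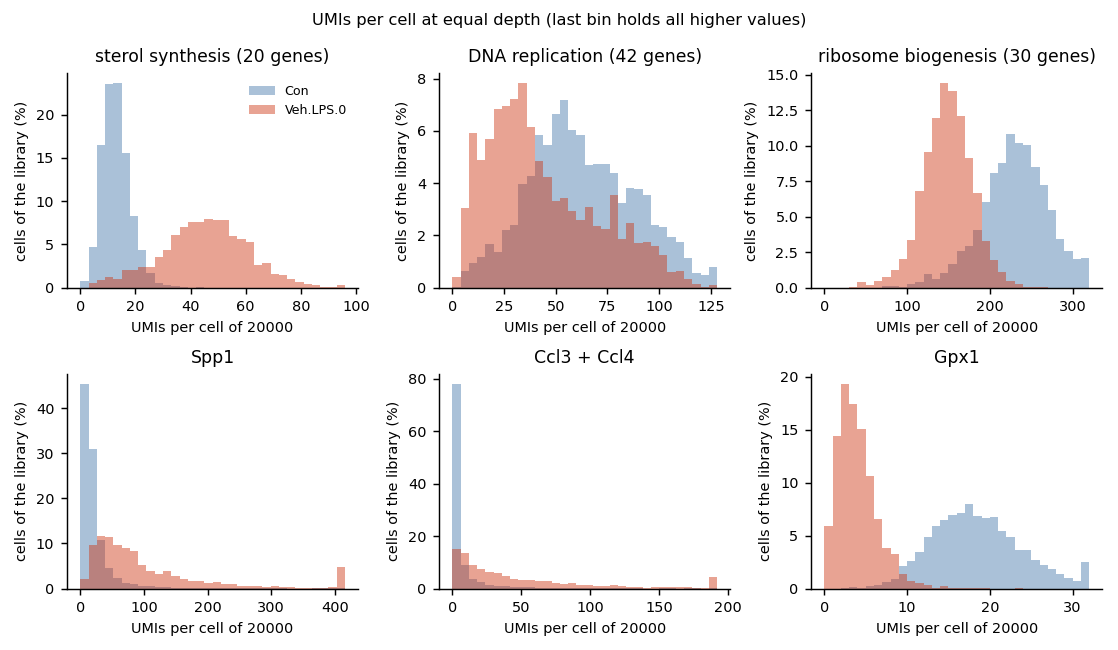
Distribution over cells of UMIs per cell at 20000 UMIs (x) as percent of the library's cells (y), for 3 gene lists and for Spp1, Ccl3 with Ccl4, and Gpx1, in Con (blue) and Veh.LPS.0 (red); the last bin holds all higher values. The sterol, ribosome biogenesis and Gpx1 distributions shifted as a whole, with sterol medians of 12 and 45 UMIs, while the chemokine distribution spread to the right with a long tail.

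Id3 had the lowest ratio of all genes past both limits. Id3 (ENSMUSG00000007872, chr4:136143822-136145392 in GRCm38) encodes an inhibitor of basic helix-loop-helix factors and is a direct target of BMP receptors through SMAD proteins. It had 10941 UMIs in Con and 99 in Veh.LPS.0, or 87.0 and 1.00 CPM, an 86.8-fold difference (71.2 to 107), and 0.457 CPM in DHA.LPS.0. A UMI was found in 59.5% of Con cells, 1.93% of Veh.LPS.0 cells and 1.15% of DHA.LPS.0 cells. Its paralogue Id1 had 174, 53.1 and 41.4 CPM and was found in 85.5%, 50.7% and 43.1% of cells. Id2 had 33.1, 19.7 and 21.8 CPM. Of 10 TGF-beta and BMP target genes, 7 were more than 1.5-fold lower and none past 1.5-fold higher, with a median log2 ratio of -0.77, and 3 of the 7 also met the share limit. The lower members included Smad6, an inhibitor of BMP signalling that it induces, with 4.81 and 2.76 CPM, and Pmepa1, a target of TGF-beta, with 2.11 and 0.182 CPM.

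Dmpk, a protein kinase gene best known from muscle, was also nearly lost from Veh.LPS.0, 113-fold below Con (70.6 to 195). It had 2450 UMIs in Con and 17 in Veh.LPS.0, or 19.5 and 0.172 CPM, and was found in 28.1% of Con and 0.363% of Veh.LPS.0 cells; in DHA.LPS.0 it had 1 UMI. It was seen in under 50% of cells and so is not among the 550 lower genes. Ptgs1, the constitutive cyclooxygenase, had 96.2, 28.9 and 22.8 CPM, Car2, a carbonic anhydrase, had 200, 43.8 and 30.97 CPM, and Il17ra, an interleukin receptor chain, had 50.8, 20.5 and 11.8 CPM in Con, Veh.LPS.0 and DHA.LPS.0. All 3 were lower in each reduced-serum library.

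Selenoproteins carry selenocysteine, whose insertion needs selenium that cells in culture take mainly from serum; this list was drawn up after the values of Gpx1 were seen. Of 17 measured selenoprotein genes, 7 were more than 1.5-fold lower, all with the share limit too, and none past 1.5-fold higher. Gpx1 (ENSMUSG00000063856, chr9:108339080-108340342 in GRCm38), the cytosolic glutathione peroxidase, had 896 CPM in Con, 179 in Veh.LPS.0 and 145 in DHA.LPS.0, a 5.004-fold difference between the first pair (4.93 to 5.08). The median cell had 18 Gpx1 UMIs in Con (11 to 25) and 3 in Veh.LPS.0 (1 to 7). Selenow had 307, 64.3 and 106 CPM, Selenoh, a nucleolar protein, had 298, 83.0 and 71.2 CPM, Txnrd1, the cytosolic thioredoxin reductase, had 244, 97.6 and 118 CPM, and Msrb1, a methionine sulfoxide reductase, had 63.4, 29.5 and 34.7 CPM. Selenot and Selenos were less far below Con, at 94.9 and 165 CPM there and 62.9 and 110 in Veh.LPS.0. The other 10 were within 1.5-fold of Con. Gpx4, the lipid hydroperoxidase that guards against ferroptosis, had 432, 469 and 484 CPM, Selenof had 260, 227 and 233 CPM, and Sephs2, the selenophosphate synthetase, had 135, 163 and 150 CPM. The median log2 ratio over the 17 was -0.12, and over the 14 seen in 50% of cells it was -0.39. Factors that insert selenocysteine were within 1.5-fold, with 25.2 and 19.0 CPM for Secisbp2 and 17.4 and 16.4 CPM for Eefsec.

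Antioxidant genes driven by NRF2 were lower in part, with 8 of 18 more than 1.5-fold lower (7 with the share limit), none higher past it and a median log2 ratio of -0.46. Gclm, of the enzyme that starts glutathione synthesis, had 198 CPM in Con, 75.1 in Veh.LPS.0 and 127 in DHA.LPS.0. G6pdx and Pgd, the NADPH-producing steps of the pentose phosphate path, had 103 and 260 CPM in Con and 53.6 and 143 in Veh.LPS.0. Hmox1, the inducible heme oxygenase, was not lower, with 61.8, 71.0 and 172 CPM. Txnrd1 is in both this list and the selenoproteins.

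Some zinc genes differed between the reduced-serum libraries. Of 8 measured metallothionein and zinc genes, 4 were more than 1.5-fold lower in Veh.LPS.0 than in Con and 1 higher (2 and 1 with the share limit). The metallothioneins Mt1 and Mt2, which bind zinc and are induced by it, had 699 and 127 CPM in Con, 308 and 69.6 in Veh.LPS.0, and 537 and 268 in DHA.LPS.0. Slc30a1, a zinc exporter that zinc also induces, had 4.29, 1.67 and 5.20 CPM. Slc39a10, a zinc importer, was higher in Veh.LPS.0 alone, with 34.2, 114 and 37.0 CPM, and was found in 47.7%, 87.0% and 45.6% of cells. Veh.LPS.0 alone was well below Con for both metallothioneins and Slc30a1, while DHA.LPS.0 was nearer to Con or above it.

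Several chemokine genes were far higher before any LPS was given, while others were level or lower. Of 16 measured chemokines and receptors, 7 were more than 1.5-fold higher (3 with the share limit) and 1, the scarce Ccl24, was lower past it; 5 in all were lower, and the median log2 ratio was 0.37. Ccl3 had 168 CPM in Con, 1159.5 in Veh.LPS.0 and 1292 in DHA.LPS.0, and Ccl4 had 230, 1524 and 1777 CPM. Both attract monocytes and T cells, and the ratios of Veh.LPS.0 over Con were 6.89 (6.79 to 6.996) and 6.63 (6.55 to 6.71). A Ccl3 UMI was found in 55.2% of Con cells, 96.8% of Veh.LPS.0 cells and 97.3% of DHA.LPS.0 cells. The cells were unequal: the 10% with most Ccl4 UMIs held 77.1% of all Ccl4 UMIs in Con and 42.3% in Veh.LPS.0. Cxcl2, a neutrophil attractant, had 4.96, 112 and 235 CPM, found in 3.06%, 18.7% and 24.6% of cells, and in Veh.LPS.0 its top 10% of cells held 95.8% of its UMIs. Ccl9 had 344, 823 and 765 CPM. Ccl2, a monocyte attractant, was within 1.5-fold at 740, 910 and 1186.5 CPM, as was the receptor Cx3cr1 at 80.7 and 88.8 CPM in Con and Veh.LPS.0. Within G1-called cells the log2 ratio of Ccl4 was 2.34, beside 2.73 over all cells. By phase, Ccl4 had a mean of 39.3 UMIs per thinned cell in G1-called cells of Veh.LPS.0 and 14.9 in G2M-called cells, and 7.12 and 1.97 in Con.

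Inflammatory genes of the NF-kB list were mostly higher too, 10 of 16 past 1.5-fold (5 with the share limit) and none lower past it. The median log2 ratio was 0.93 over all cells and 0.37 within G1-called cells. Tnf had 79.1, 152 and 143 CPM in Con, Veh.LPS.0 and DHA.LPS.0. Il1rn, the antagonist of the interleukin-1 receptor, had 29.3, 64.5 and 80.2 CPM, and Il18 had 21.7, 42.1 and 39.6 CPM. Some genes that LPS induces, Il1b, Il10, Il6 and Nos2, were silent or nearly so, as seen when looked up afterwards. Il1b and Il10 had 0 UMIs in Con and in Veh.LPS.0, which allows up to 0.0239 and 0.0304 CPM. Il6 had 0 and 19 UMIs and Nos2 had 0 and 8. In Veh.LPS.4, after 4 h of LPS, Il1b had 46406 UMIs. Atf3, a stress-induced factor, had 10.1, 39.7 and 62.1 CPM, while Fos was lower at 36.2, 18.6 and 21.7 CPM. Rgs1, which curbs chemokine receptor signalling, had 12.9, 94.2 and 111 CPM, and was found in 9.53%, 53.1% and 58.5% of cells.

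Interferon-stimulated genes were higher, most from a low level. Of 24 measured, 18 were more than 1.5-fold higher and 1 lower, with a median log2 ratio of 1.22. Just 6 of the 24 were seen in 50% of the cells of Con or Veh.LPS.0. All 6 were past 1.5-fold higher, which was in part fixed in advance, since a scarce gene can meet that limit through its higher library alone. Ifi27l2a had 28.3 CPM in Con, 123 in Veh.LPS.0 and 87.8 in DHA.LPS.0, found in 39.2%, 81.0% and 70.5% of cells. Irf7, the factor that amplifies interferon production, had 1.31, 8.47 and 17.5 CPM, and Isg15 had 0.437, 2.005 and 7.79 CPM. Ifit1 was lower in Veh.LPS.0 but not in DHA.LPS.0, with 1.16, 0.435 and 8.11 CPM. The p200 family of nucleic acid sensors and relatives, listed after its values were seen, had 8 of 9 measured members more than 1.5-fold higher (5 with the share limit). Ifi202b had 3.98, 27.3 and 66.1 CPM and Ifi203 had 35.2, 123 and 181 CPM, whereas Aim2, the inflammasome sensor, had 54.2, 51.6 and 50.1 CPM. Members of this family are close copies, so that reads may have been assigned among them with error.

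Antigen presentation genes were higher, among them those of class I. H2-K1 had 116 CPM in Con, 264 in Veh.LPS.0 and 275 in DHA.LPS.0, B2m, its light chain, had 414, 772 and 893 CPM, and Tap1, the peptide transporter, had 10.2, 22.6 and 26.3 CPM. All 14 measured genes of the list were higher and 9 past 1.5-fold (6 with the share limit), with a median log2 ratio of 0.93. The list is broader than class I, and Cd40, Cd86 and Cd274, which lie outside it, were among those past 1.5-fold. Cd74, the invariant chain of class II, was within 1.5-fold at 862 and 1110.2 CPM.

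Secreted and matrix genes included the largest gain in absolute level among the genes past 1.5-fold other than Malat1. Spp1, osteopontin (ENSMUSG00000029304, chr5:104435111-104441053 in GRCm38), had 1319.5 CPM in Con, 6803 in Veh.LPS.0 and 5623 in DHA.LPS.0. The median cell had 14 Spp1 UMIs in Con (5 to 46) and 72 in Veh.LPS.0 (24 to 228). Wfdc17, a secreted protein with a WAP domain, had 50.8, 455 and 635 CPM and showed the largest gain in the share of cells, from 39.4% to 94.96% in Veh.LPS.0 and 96.1% in DHA.LPS.0. Plau, urokinase, had 26.5, 87.2 and 112 CPM, and Lgals1 had 547, 1132 and 1146 CPM. Mmp12, macrophage elastase, had 4 UMIs in Con and 382 in Veh.LPS.0, 0.0318 and 3.87 CPM, and was found in 0.363% of thinned Veh.LPS.0 cells.

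Lysosomal genes were higher in part: 12 of 35 were more than 1.5-fold higher (9 with the share limit) and none lower past it. The median log2 ratio was 0.45, or 0.27 within G1-called cells. Ctsb, cathepsin B, had 408 CPM in Con, 869 in Veh.LPS.0 and 1152 in DHA.LPS.0, and Grn, progranulin, had 131, 300 and 393 CPM. Lamp1 and Ctss were within 1.5-fold, at 452 and 251 CPM in Con and 494 and 271 in Veh.LPS.0. Of 12 hypoxia response genes 7 were higher past 1.5-fold (4 with the share limit) and none lower past it. Ndrg1 had 26.8, 75.7 and 130 CPM and Bnip3, a mitophagy receptor, 42.6, 99.1 and 139 CPM. Aldoc, a glycolytic aldolase outside that list, had 31.4, 129 and 118 CPM. Of 15 measured glycolysis genes 2 were more than 1.5-fold higher and none lower past it, beside 16.9% higher over all genes. Pgk1, with a log2 ratio of 0.63, was the 1 that also met the share limit. The median log2 ratio of the list was 0.23, and Ldha and Pkm were within 1.5-fold.

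Of the 9 macrophage markers 7 were within 1.5-fold, while of 21 measured lineage factors and growth factor receptors 6 were higher past it and 5 lower (3 and 5 with the share limit). Spi1, the lineage factor PU.1, had 228 CPM in Con and 196 in Veh.LPS.0, Lyz2 2474 and 2175 CPM, and Cd68 296 and 374 CPM. Csf1r, the M-CSF receptor, had 137, 89.2 and 62.2 CPM, and the receptor gene Fcgr1 95.5, 54.8 and 58.7 CPM. On the other side, Klf4, a factor of monocyte differentiation, had 27.0, 71.4 and 70.2 CPM, and Lilrb4a, an inhibitory receptor with a close copy in Lilr4b, had 76.3, 207 and 281 CPM. Tlr4, the receptor for LPS, had 20.9 CPM in Veh.LPS.0 and 22.1 CPM in DHA.LPS.0, 1.53-fold below Con in the first, and Cd14, its partner, had 841, 771 and 631 CPM.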

How the data were processed

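Single FLMs were captured in droplets, and the authors deposited counts of UMIs per gene and barcode for each of 7 libraries, unnormalized and before their filter on cells. The file headers and the submitters' processing notes name Cell Ranger 3.1.0 and the mm10 build; the paper's methods name another version of the software. From the deposited counts, cells were kept by the limits that the paper's methods give, and each gene's UMIs were added over a library's cells and scaled to CPM. Ratios were given exact binomial intervals. Over all genes, those past 1.5-fold were counted when 50% or more of the unthinned cells of Con or Veh.LPS.0 held a UMI. List members were counted past 1.5-fold with at least 10 UMIs in both libraries, and again with that share limit. With 1 library per condition no test was possible, and the cells of a library were not treated as replicates. Intervals and limits for counts of 0 cover counting error only, and a count of 0 was given a limit of 3 counts. Phases were called with Seurat 5.3.0, neighbours with scikit-learn 1.9.0. Doublets were not called; leaving out the 5% of cells with most UMIs was an alternative. The ratio code was tested on simulated counts with known ratios. Alternatives used edgeR 4.0.16 (TMM), sctransform 0.4.2 and scanpy 1.11.5.

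The comparison, its gene lists and the rule for named genes were chosen with earlier results of these data known. Named were the 15 highest and 15 lowest ratios past both limits, up to 3 members of each list at either end and those that define its function, and the 10 largest gains and losses in share of cells, without unnamed gene models. Malat1, Vim, S100a6, the cytokines and Nos2 at or near 0, and the selenoprotein, splicing and p200 lists were added or singled out after values were seen, as were the list members named because they were level, scarce or of known role (Ebp, Fasn, Gpx4 and the like). Promoter motifs, part of that rule, were not used here. Coordinates are RefSeq's for GRCm38.p6. Aldoa and Clec7a were not analysed here. Close gene copies (Wfdc17, H2-K1 and H2-D1, Ccl3 and relatives, Lilrb4a and Lilr4b, histones, the p200 family) may exchange reads. Some members of the lists are counted but not reported here by name.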

Additional observations from a re-analysis of the deposited data

Results flagged for a closer look

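A signal was found outside the cells compared. Among all barcodes, 37.8% of those of Veh.LPS.0 had at least 20% of their UMIs in mitochondrial genes (exact binomial 95% interval 36.4 to 39.2), against 29.0% in Con (27.7 to 30.4) and 76.4% in DHA.LPS.0. These barcodes were left out of the comparison. With every barcode kept, the median log2 ratio was 1.96 for the sterol synthesis list and -0.70 for ribosome biogenesis. In the cells kept these were 1.92 and -0.67. That setting also lifts the limits on UMIs and genes. The kept cells gave 125716982 of the 137420191 UMIs of all barcodes in Con and 98763388 of 113966239 in Veh.LPS.0. Such medians thus rest mostly on the cells already compared, and the ratios of the left-out barcodes alone were not measured.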

How the results depend on the processing

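Counts of genes past 1.5-fold, 468 higher and 550 lower, depended on who could enter. Higher genes numbered 247 with all barcodes, 278 on cells thinned to 20000 UMIs, 768 with a UMI in 25% of cells, 2051 with no share limit but 10 UMIs in both libraries, 157 past 2-fold and 154 on SCTransform-corrected counts with a pseudocount of 1. Lower genes numbered 405 on cells thinned to 20000 UMIs, where 4111 genes met the share limit. They numbered 923 without the share limit, 46 past 2-fold and 168 on SCTransform-corrected counts. With the median ratio set to 1, a scaling added after the data were seen, they numbered 278. These moves follow in part from construction, since fewer or more genes could enter and a pseudocount pulls low genes toward 1. The share of higher among called genes was 46.0% in the values above, 33.6% with all barcodes, 69.0% without the share limit, 77.3% past 2-fold and 69.4% with the median ratio set to 1. Leaving ribosomal protein and mitochondrial genes out of the total, also added later, gave 536 and 388. Of 137 named genes past both limits, all kept their direction under 9 of 10 alternatives. That was largely fixed in advance, since all were past 1.5-fold by choice and smaller changes of scale cannot reverse them. Several settings also reused most of the same cells. On SCTransform-corrected counts 99 stayed past 1.5-fold, and 129 did in G1-called cells and with the median ratio set to 1. In G1-called cells Hist1h1b turned from -0.62 to 0.02 (0.0249, log2). S or G2M was called for 73.1% of Con and 52.0% of Veh.LPS.0 cells; the shares were 83.8% and 61.8% with scanpy's scoring and 85.0% and 63.4% when scored over 7 libraries, and 54.1% in Veh.LPS.0 with a mitochondrial limit of 10%. With 50 neighbours, 1.29% of the neighbours of Con cells came from Veh.LPS.0 and 0.163% the other way. No paired analysis was possible because each condition has 1 library, which also leaves no replicate to leave out. SCTransform-corrected counts brought these list medians nearer to 0: interferon from 1.22 to 0.16, NF-kB from 0.93 to 0.16, hypoxia from 0.90 to 0.25, antigen presentation from 0.93 to 0.38, p200 from 1.80 to 0.58, sterol synthesis from 1.92 to 1.10, and TGF-beta and BMP from -0.77 to -0.11. The pseudocount of 1 in that setting pulls low genes this way by construction. How much of each shift came from the correction itself was not tested.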

Other observations

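Of 12 measured FOXO targets, genes that FOXO factors switch on when growth factor signalling is low, 5 were more than 1.5-fold higher and none lower past it, 1 of them with a UMI in 50% of cells. Pik3ip1, an inhibitor of PI3 kinase, had 0.533, 2.95 and 3.54 CPM in Con, Veh.LPS.0 and DHA.LPS.0. Ccng2, a cyclin of arrested cells, had 3.29, 12.2 and 13.6 CPM. Within G1-called cells the log2 ratios of Pik3ip1 and Ccng2 were 0.97 and 1.10, beside 2.47 and 1.89 over all cells. The FOXO list's median log2 ratio was 0.23 within G1-called cells and 0.36 over all cells. Of 14 autophagy genes 5 were higher past 1.5-fold, 3 of them in 50% of cells, with Map1lc3a, an LC3 gene, at 8.46, 20.9 and 23.8 CPM and Sqstm1 (p62) at 86.7, 153 and 286 CPM. Of 9 ERK feedback genes 3 were higher past 1.5-fold, none of them in 50% of cells. Over all genes with 10 UMIs in both libraries 16.9% were more than 1.5-fold higher and 7.59% lower. Of 9 measured clock genes 1 was past 1.5-fold, and Clock had 27.2 CPM in Con and 25.5 in Veh.LPS.0. Of 7 measured glucocorticoid targets 2 were past 1.5-fold, both higher, among them Tsc22d3, a leucine zipper gene that glucocorticoids induce, with 3.03, 7.09 and 9.16 CPM in Con, Veh.LPS.0 and DHA.LPS.0. Of 12 p53 targets 2 were past 1.5-fold, both higher and neither in 50% of cells, a share like that of all genes: Plk2, a stress-induced kinase, had 2.53, 11.5 and 20.8 CPM, while Cdkn1a (p21) had 392, 511 and 507 CPM. Among abundant genes outside the lists, chosen after their values were seen, Vim, vimentin, had 1187, 2051 and 2620 CPM, and S100a6, a calcium-binding protein, had 2339, 3986 and 3782 CPM. Tuba1a, an alpha tubulin, had 10.2, 55.4 and 32.2 CPM. At equal depth Xist and the Y-linked genes examined had a UMI in 0% of the cells of both libraries.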
